A study of Homo sapiens with 8 samples.

Results

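H9 is an established line of human embryonic stem cells (hESCs) from WiCell (WA09), and the comparison described here set H9 hESCs grown at high density against H9 hESCs grown at low density. Its members were chosen by the treatment in the sample labels: the 2 libraries labelled crowded were the high-density group and the 2 libraries labelled small were the low-density group, 4 of the 8 libraries of the series, and all 19472 genes of their shared table were used. The labels give no genetic change, drug or time for either group, and both were grown on Matrigel in stem cell medium (mTeSR1 or TeSR-E8). According to the methods of the study, crowding was made by letting the cells attach only to small Matrigel islands. The study asked which transcriptional responses follow when hESCs have less room to spread. One cell line was used, and the labels do not say that the libraries of a group came from separate cultures, so the p-values measure the spread between these libraries, which may be technical.

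Cells that are packed together have more contact with their neighbours and less with the matrix beneath them. Matrix contacts are held by integrins and focal adhesions and pull on actin and myosin, and tension in this system is read by transcription factors such as SRF and the YAP-TEAD pair. hESCs are also held in their pluripotent state by FGF-ERK and NODAL signalling, and a change in these signals precedes their choice between neuroectoderm and mesendoderm.

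RNA was measured by poly-A sequencing with a stranded kit, with 50359703 to 62410168 reads counted on genes per library. Levels are given as FPKM, fragments counted on a gene scaled to the length of its transcript and to the mapped reads of the library. Of the 19472 genes, 17672 had enough reads to be tested with edgeR's quasi-likelihood test, and a gene was called where its Benjamini-Hochberg adjusted p was below 0.05 and its log2 fold change, high over low density, was over 0.5 in size. By this rule 1884 genes were higher at high density (10.7% of those tested) and 967 were lower (5.47%), 16.1% in either direction. These shares are the background for every list below, as is the median log2 fold change of all tested genes, 0.0032. The shares called also depend on level, as given below, and this background is not matched to the level of any list. FPKM of the densities did not overlap for 70.2% of tested genes, so a lack of overlap between 2 libraries and 2 libraries is common here, and 2 against 2 libraries cannot reach 0.05 in a permutation test of 1 gene.

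The excess of higher over lower genes came with the size threshold. At an adjusted p below 0.05 with no limit on size, 3432 genes were higher and 3584 were lower. Higher genes changed by more, with a median log2 fold change of 0.91 against -0.79 for lower genes, and 116 rose over 4-fold while 39 fell over 4-fold. The share called higher was largest at low level, although 994 of the 1884 higher genes had a mean of at least 1 FPKM. Of the 967 lower genes, 689 did. Among tested genes with a mean of 0.1 to 1 FPKM, 19.7% were higher and 5.61% lower, whereas among genes with 10 to 100 FPKM 2.74% were higher and 4.51% lower. Between the high-density libraries, replicate 2 was above replicate 1 in 72.8% of the 1884 higher genes and below it in 65.1% of the 967 lower genes, while it was below it in 51.2% of the genes that were not called.

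**Figure D1:**
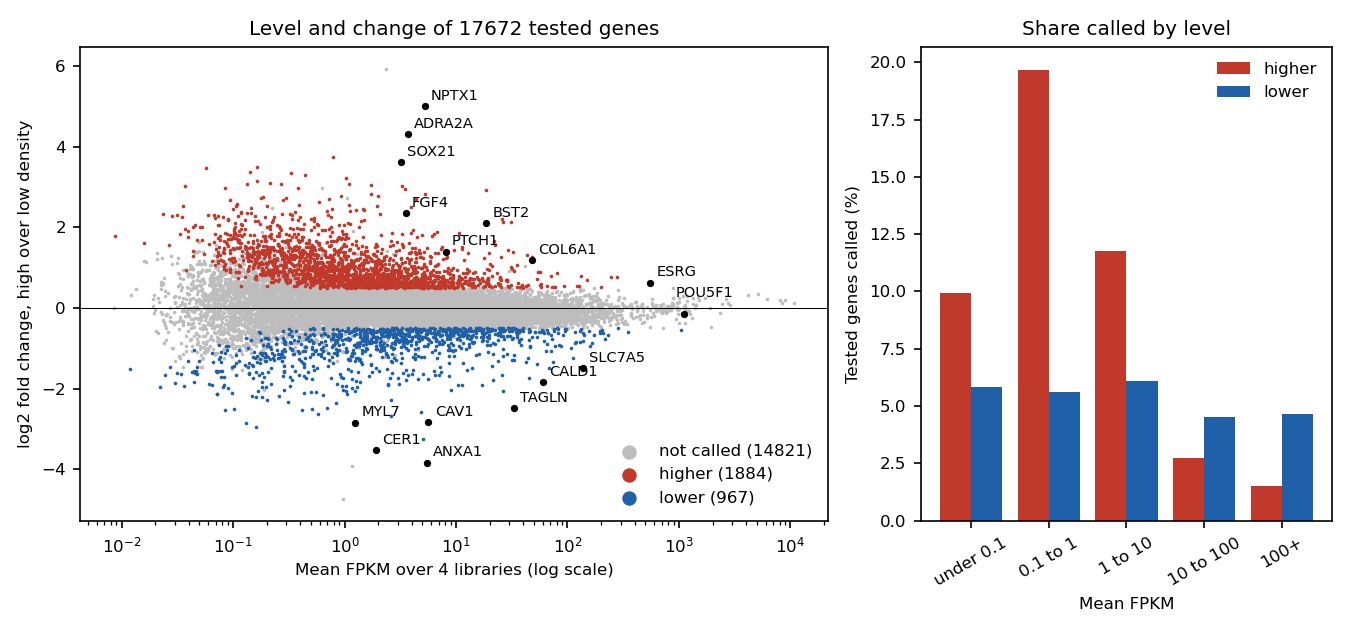
Left, log2 fold change of high over low density (vertical axis) against mean FPKM over the 4 libraries (horizontal axis, log scale) for 17672 tested genes, in red where called higher, blue where called lower and grey otherwise. Right, the percentage of tested genes called in each class of mean FPKM, with the share called higher at its largest, 19.7%, between 0.1 and 1 FPKM.

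A small set of genes crossed from under 1 FPKM to 2 FPKM or more. In 26 genes both low-density libraries were under 1 FPKM and both high-density libraries at 2 FPKM or more, and all 26 were called. This rule already asks for a gap between the densities, so the calls are no separate support. Some of the 26 lay close to the limits, such as UNC5A, with 0.995 and 0.882 FPKM at low density and 2.66 and 2.92 FPKM at high density. NPTX1 (GRCh37 chromosome 17, minus strand, 78440634 to 78451643), which encodes a secreted pentraxin of synapses, had 0.386 and 0.233 FPKM at low density and 10.5 and 9.81 FPKM at high density. ADRA2A, an adrenergic receptor coupled to inhibitory G proteins, had 0.395 and 0.292 FPKM at low density and 7.01 and 7.12 FPKM at high density. SOX21, a SOXB2 transcription factor of the neural lineage, had 0.487 and 0.446 FPKM at low density and 5.75 and 6.13 FPKM at high density. All high-density libraries lay far above the low-density ones, and the folds were 32.1-fold, 19.8-fold and 12.2-fold. HTR1D, a serotonin receptor, rose 8.11-fold (adjusted p = 5.01e-13), FAM20A, a pseudokinase of the secretory pathway, rose 6.804-fold (adjusted p = 4.19e-12), and PLA2G2A, a secreted phospholipase, rose 7.69-fold (adjusted p = 1.91e-08). The opposite change, from 2 FPKM or more to under 1 FPKM in both libraries, was seen in 5 genes. Of these, CER1, a secreted antagonist of NODAL and BMP, had 3.24 and 3.82 FPKM at low density and 0.443 and 0.189 FPKM at high density. GCNT4, a glycosyltransferase, fell by 2.67 on the log2 scale, and PLAT, tissue plasminogen activator, fell by 1.68. The other two were PDGFRB and KIFC3, which lie outside the rule for named genes and are named because the set is small.

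Pluripotency genes stayed at high levels at both densities. POU5F1 (OCT4), the central pluripotency factor, had 1158 and 1112 FPKM at low density and 1094 and 1045 FPKM at high density. SOX2, its partner, had 90.3 and 97.8 FPKM at low density and 131 and 128 FPKM at high density. NANOG had 24.2 and 22.9 FPKM at low density and 16.6 and 18.5 FPKM at high density. These 3 factors moved apart: the log2 fold change was -0.14 for POU5F1 (SE 0.04), 0.41 for SOX2 (SE 0.05) and -0.46 for NANOG (SE 0.06), all below the size threshold. NANOG reached the threshold when high-density replicate 2 was left out (-0.52). Of 23 tested pluripotency factors 2 were higher and 0 lower, with a median log2 fold change of 0.11, and the higher count was 1 without low-density replicate 1 or high-density replicate 2 and the lower count was 1 without low-density replicate 1 or high-density replicate 2. One was ESRG, a lncRNA of hESCs, with 438 and 409.6 FPKM at low density and 687 and 676 FPKM at high density, a difference of 0.63 on the log2 scale (SE 0.04, adjusted p = 9.93e-10). The other was DPPA2, a chromatin protein of pluripotent cells, at 0.55, which was under the size threshold without low-density replicate 1 (0.49) or high-density replicate 2 (0.44). Summed FPKM of the list were 4555 to 4702 at low density and 4965 to 5152 at high density.

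Among genes linked to the naive state, the pluripotency of the early blastocyst, 7 of 15 were higher and 2 lower, and the median log2 fold change was 0.60. FGF4, a ligand of the FGF receptors, had 1.09 and 1.15 FPKM at low density and 5.68 and 6.26 FPKM at high density, and its densities differed by a log2 fold change of 2.36 (SE 0.11, adjusted p = 1.57e-12). SUSD2, a surface protein used to sort naive cells, rose by 1.16 and DPPA5 by 1.19. TFAP2C, a transcription factor of naive cells and trophectoderm, rose by 0.61. The lower members were NR5A2, a nuclear receptor, at -0.81, and NANOGP1 at -0.53, a NANOG copy with which reads may be shared, and NANOGP1 passed the size threshold only with high-density replicate 1 in the fit (-0.42 without it).

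Markers of differentiated cells stayed low or moved in both directions. In the neuroectoderm list 6 of 23 tested genes were higher and 6 lower, with a median of -0.13 (-0.33 to -0.026 when 1 library was left out), and the summed FPKM of the list overlapped between densities (181 and 186 at low density, 183 and 171 at high density). SOX21 was among the higher members. Lower members were CDH2 (N-cadherin) with 18.4 and 18.2 FPKM at low density and 6.87 and 6.33 FPKM at high density, SOX3 (-1.13 on the log2 scale) and POU3F1 (-0.69). PAX6, the defining factor of human neuroectoderm, was between 0.0039 and 0.031 FPKM in all 4 libraries and had too few reads to be tested. SOX1 was called higher at a trace level, with 0.00854 and 0.0105 FPKM at low density and 0.0665 and 0.0537 FPKM at high density, and lost the call without low-density replicate 2 (adjusted p = 0.0504). OTX2, at 10.7 and 11.2 FPKM at low density and 18.2 and 13.4 FPKM at high density, was not called in the fit of all 4 libraries (adjusted p = 0.0551) and was called without low-density replicate 2 (0.50) or high-density replicate 2 (0.68). LHX2 was called lower at a trace level, with 0.121 and 0.105 FPKM at low density and 0.0394 and 0.0408 FPKM at high density. SIX3 is not in the table.

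Of 15 tested mesendoderm markers 2 were higher and 4 lower. Their median of -0.25 did not hold when 1 library was left out, as it then was -0.14 to 0.071. WNT3, a ligand that starts the primitive streak, fell by 2.14 on the log2 scale, with 1.97 and 1.45 FPKM at low density and 0.474 and 0.332 FPKM at high density. FOXA2, a factor of definitive endoderm, was called lower at a trace level, with 0.1804 and 0.281 FPKM at low density and 0.0259 and 0.0403 FPKM at high density. TBX6, a T-box factor of paraxial mesoderm, rose by 1.75, with 0.442 and 0.512 FPKM at low density and 1.59 and 1.75 FPKM at high density. Brachyury (TBXT) was at 0.0355 to 0.0911 FPKM and was not called, GATA6 and GSC were not tested, and EOMES and SOX17 are not in the table. The summed level of the mesendoderm list was 32.1 and 33.3 FPKM at low density and 36.6 and 40.7 FPKM at high density. For amnion and trophectoderm 2 of 12 markers were higher and 1 lower, and for neural crest 1 of 13 was higher and 3 lower. The neural crest factor SOX10 was called at 0.603 to 1.098 FPKM, and that call was lost when low-density replicate 1, low-density replicate 2 or high-density replicate 2 was left out (adjusted p = 0.0664, 0.089 and 0.112). In bulk RNA a change in the number of cells of a type cannot be told apart from a change in RNA per cell. Of 39 listed HOX genes 1 is in the table, which holds genes with at least 1 read in every library, and 0 could be tested, so their levels are not described.

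Neuronal and synaptic genes were called in both directions, 12 of 48 higher and 6 lower, with a median of 0.011 (-0.0098 to 0.12 when 1 library was left out). Besides NPTX1, the synaptic adhesion proteins CNTN1 and NRXN2 rose by 0.74 and 0.72 on the log2 scale. The neuronal tubulin TUBB3, with 107 and 115 FPKM at low density and 80.1 and 65.02 FPKM at high density, fell by 0.67, and chromogranin A (CHGA) and secretogranin II (SCG2), proteins of secretory granules, fell by 0.64 and 0.85. The RNA-binding protein ELAVL3 rose to 0.834 and 0.93 FPKM from 0.16 and 0.211 FPKM. STMN2 and DCX, markers of young neurons, were at 0.0250 to 0.124 FPKM and at most 0.8 FPKM and were not called.

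NODAL and its feedback inhibitors fell at high density. NODAL, a TGF-beta family ligand that supports pluripotency and induces mesendoderm, had 10.4 and 10.7 FPKM at low density and 4.09 and 2.83 FPKM at high density. LEFTY1, a target and inhibitor of NODAL, had 15.9 and 16.7 FPKM at low density and 5.54 and 3.57 FPKM at high density. LEFTY2 had 4.69 and 6.11 FPKM at low density and 1.86 and 1.46 FPKM at high density. In each of these genes the densities did not overlap, and the log2 fold changes were -1.67 (SE 0.14), -1.90 (SE 0.20) and -1.78 (SE 0.15). LEFTY1 and LEFTY2 are near-identical neighbours, so the split of reads between them is uncertain. Across the NODAL and activin list 7 of 24 genes were lower and 4 higher. Higher members were follistatin (FST), a binder of activin, at 1.04, and FOXH1, the DNA-binding partner of SMAD2 and SMAD3, at 0.57 with 29.8 and 32.3 FPKM at low density and 48.9 and 46.8 FPKM at high density. Among TGF-beta ligands, receptors and latency proteins 2 of 16 were higher and 3 lower. The latency proteins LTBP4 and NRROS rose by 0.99 and 0.95, and thrombospondin 1 (THBS1), an activator of latent TGF-beta, fell by 1.22.

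The BMP list had 5 of 32 genes higher and 3 lower, with a median of 0.21 (0.12 to 0.31 when 1 library was left out). The ligands BMP7 and GDF11 rose by 0.72 and 0.79 on the log2 scale, as did the inhibitory helix-loop-helix factors ID2 (0.76) and ID4 (0.72), which are common BMP targets. BAMBI, a decoy receptor of the same pathway, fell by 1.04, with 12.3 and 11.6 FPKM at low density and 5.87 and 6.22 FPKM at high density.

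Genes of the FGF-ERK output were mostly lower where called. ERK is the kinase at the end of the FGF cascade, and its transcriptional output includes the phosphatases and SPRY proteins that restrain it. Of 25 such genes 11 were lower and 1 higher, with a median of -0.47, and the higher count was 2 without low-density replicate 2. DUSP6, the cytoplasmic ERK phosphatase, had 37.7 and 39.7 FPKM at low density and 13.5 and 11.8 FPKM at high density and fell by 1.67 (SE 0.07, adjusted p = 4.66e-13). IER3, an early response gene, had 17.5 and 17.8 FPKM at low density and 5.46 and 4.32 FPKM at high density. The receptor tyrosine kinase EPHA2 and the feedback inhibitor SPRY4 fell by 1.18 and 0.78. The summed FPKM of the list were 403 and 409 at low density and 296 and 295 at high density. Among 24 FGF ligands and receptors 5 were higher and 3 lower, and FGF4 and FGF11 (an intracellular member of the family, 0.90) were the higher members with a mean of at least 1 FPKM. FGFBP3, a carrier of FGF ligands, fell by 0.78, and FGF13 was called at -0.64 but not without high-density replicate 1 (-0.49).

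Immediate-early genes, which cells switch on within minutes of a growth signal, were lower in 8 of 23 cases and higher in 2. ARC had 3.76 and 4.22 FPKM at low density and 1.34 and 1.39 FPKM at high density. FOSL1, a subunit of the AP-1 factor, fell by 0.76, MAFF by 0.85 and the phosphatase DUSP2 by 0.79. EGR1, a zinc-finger factor of the same class, went the other way, with 1.13 and 1.202 FPKM at low density and 3.18 and 3.04 FPKM at high density and a rise of 1.36 on the log2 scale (SE 0.13, adjusted p = 9.63e-08). NR4A1 was the other higher member, at 0.51, and was under the size threshold without low-density replicate 1 (0.43) or high-density replicate 2 (0.35).

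YAP and TEAD targets were lower in 11 of 29 cases and higher in 1, with a median of -0.33. CCN1 and CCN2 are matricellular proteins and the standard readouts of YAP. CCN1 had 33.2 and 33.8 FPKM at low density and 14.97 and 12.9 FPKM at high density. CCN2 had 45.1 and 44.7 FPKM at low density and 20.04 and 17.9 FPKM at high density. Both fell with no overlap between the densities, with log2 fold changes of -1.32 (SE 0.07) and -1.30 (SE 0.06). AMOTL2, which holds YAP at junctions, fell by 1.02 and FJX1 by 1.01. IGFBP3, a carrier of insulin-like growth factors, was the 1 higher member, at 0.67.

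**Figure D2:**
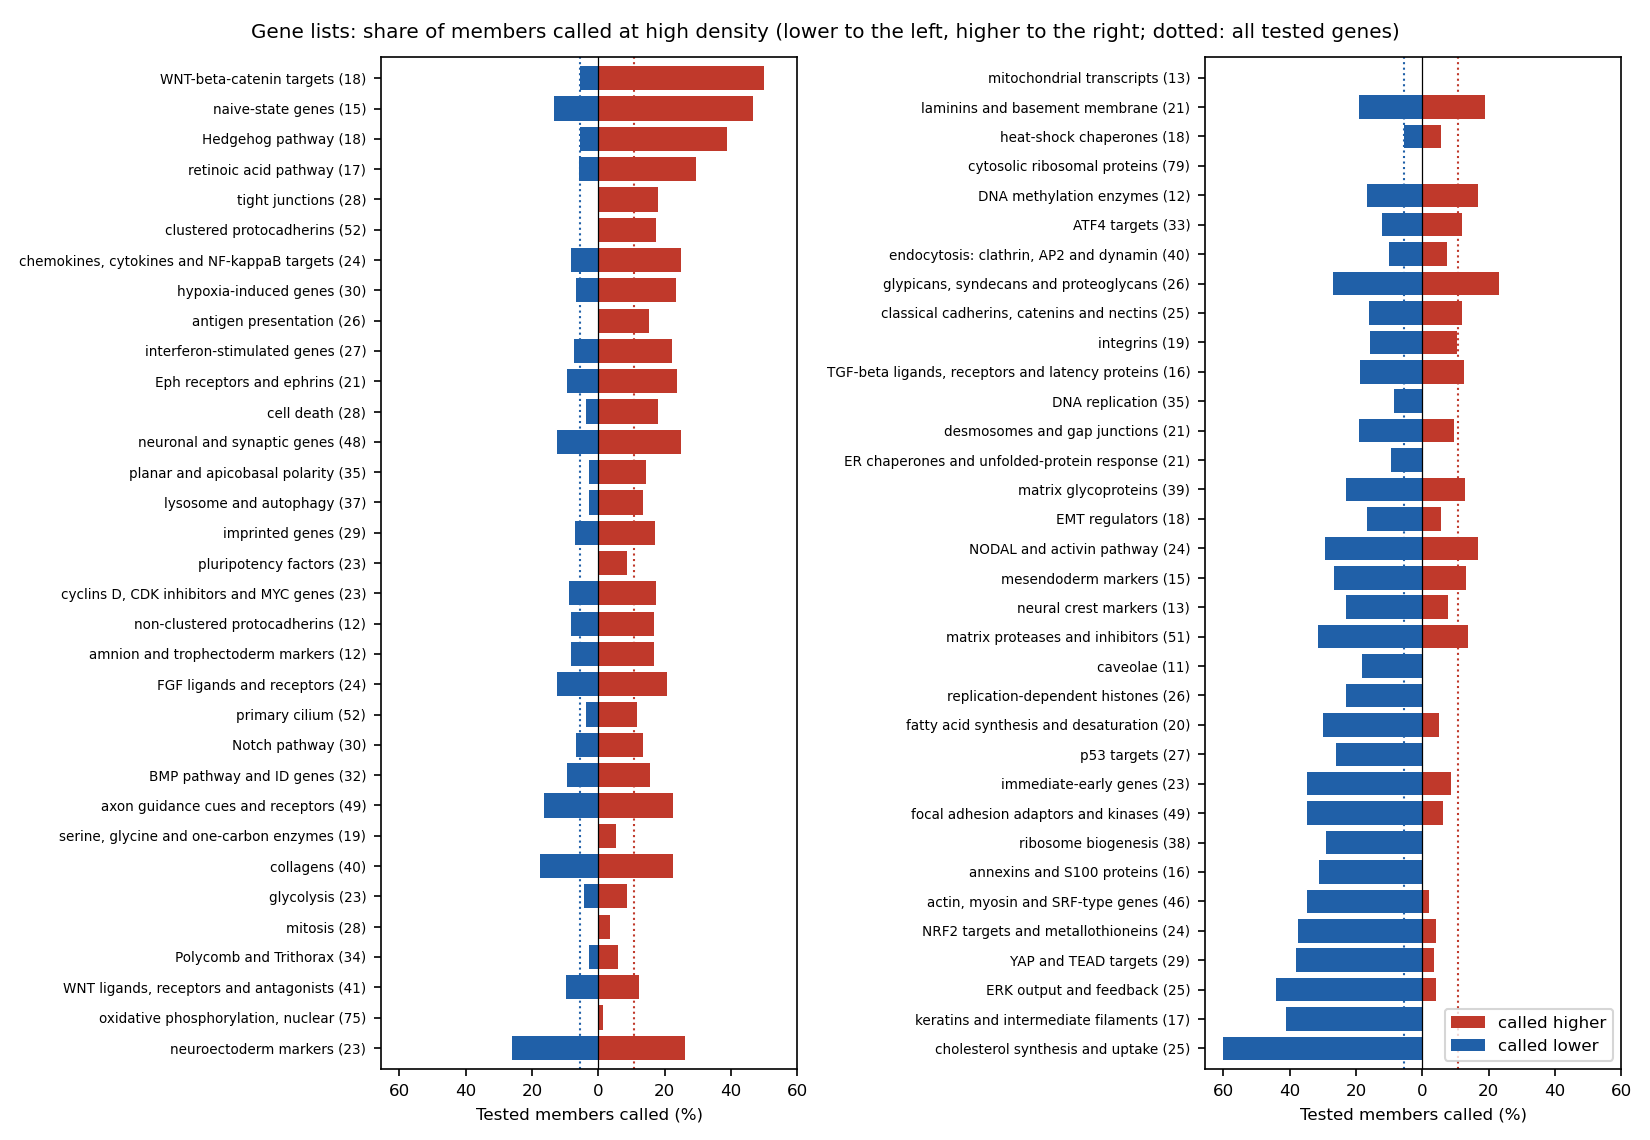
For each gene list with at least 10 tested members (number in brackets), the bar to the right gives the percentage of tested members called higher at high density and the bar to the left the percentage called lower. Dotted lines mark the shares among all 17672 tested genes, 10.7% higher and 5.47% lower, which are not matched to the level of a list. WNT-beta-catenin targets had the largest excess of higher members and cholesterol synthesis the largest excess of lower members among these lists.

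WNT-beta-catenin targets were mostly higher where called, with 9 of 18 higher, 1 lower and a median of 0.56, and the lower count was 0 without low-density replicate 2 or high-density replicate 2 and 2 without high-density replicate 1. AXIN2, the feedback inhibitor used as the general readout of the pathway, had 7.42 and 6.8004 FPKM at low density and 17.5 and 15.9 FPKM at high density and rose by 1.18 on the log2 scale (SE 0.07, adjusted p = 6.67e-11). NKD2, another feedback inhibitor, rose by 1.09. MYC was the lower member, at -0.54, with 17.1 and 18.2 FPKM at low density and 13.8 and 11.7 FPKM at high density. Of the 18 tested targets 9 had a mean of at least 1 FPKM. In a fit of log2(FPKM + 1), limited to genes with a mean of at least 0.5 FPKM, the higher count was 3. Of the WNT ligands, receptors and antagonists 5 of 41 were higher and 4 lower. LGR4, the receptor of R-spondins, had 18.5 and 19.2 FPKM at low density and 31.96 and 31.2 FPKM at high density and rose by 0.68. Besides WNT3, the receptors FZD2 and FZD5 fell by 0.85 and 0.67, and the secreted antagonist WIF1 fell by 0.72.

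The Hedgehog list was higher in 7 of 18 cases and lower in 1, with a median of 0.28, and the lower count was 0 without low-density replicate 2 and 2 without high-density replicate 1. PTCH1, the receptor of Hedgehog ligands and itself a target of the pathway, had 4.53 and 4.12 FPKM at low density and 12.2 and 11.5 FPKM at high density and rose 2.64-fold (SE of the log2 fold change 0.06, adjusted p = 1.33e-12). PTCH1 was the sole called member with a mean of at least 1 FPKM and no overlap. In a fit of log2(FPKM + 0.1), limited to genes with a mean of at least 0.5 FPKM, the higher count was 2.

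Retinoic acid genes were higher in 5 of 17 cases and lower in 1, with a median of 0.23 (0.11 to 0.28 when 1 library was left out), and the lower count was 2 without high-density replicate 1. CRABP2, which carries retinoic acid to the nucleus, had 37.9 and 39.1 FPKM at low density and 74.8 and 75.2 FPKM at high density. DHRS3, which reduces retinal, was called at 0.57 but fell under the size threshold without high-density replicate 1 (0.48). RARA, a receptor of retinoic acid, was the lower member, at -0.66.

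In the Notch list 4 of 30 genes were higher and 2 lower, and the higher count was 7 without high-density replicate 1. The ligand DLL1 had 0.536 and 0.372 FPKM at low density and 2.53 and 2.55 FPKM at high density. HES4, a transcriptional repressor, had 0.354 and 0.373 FPKM at low density and 1.77 and 2.52 FPKM at high density, on few reads. HEY2, another repressor of the same class, rose by 0.90. The coactivator MAML2 fell by 0.56.

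Among Eph receptors and ephrins 5 of 21 were higher and 2 lower. The ligands EFNA3 and EFNB3 rose by 1.24 and 0.63 and the receptors EPHB2 and EPHA8 by 0.57 and 0.85, and EFNB2 fell by 0.73. Guidance cues and their receptors were called in both directions, 11 of 49 higher and 8 lower. UNC5A, a netrin receptor, rose by 1.52 and the semaphorins SEMA5A and SEMA5B by 0.71 and 0.89, whereas SEMA3A and the secreted cue SLIT2 fell by 1.04 and 0.68.

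Genes of actin filaments, myosin and their SRF-type regulation were lower in 16 of 46 cases and higher in 1, and 38 of 46 had a log2 fold change below 0. In this list the higher count was 0 without low-density replicate 1 or high-density replicate 2 and 2 without low-density replicate 2 or high-density replicate 1. CALD1 (caldesmon), which binds actin and myosin in contractile bundles, had 92.7 and 93.2 FPKM at low density and 28.6 and 25.4 FPKM at high density and fell by 1.85 (SE 0.06, adjusted p = 3.21e-14). TAGLN (transgelin), an actin cross-linker, had 54.4 and 57.9 FPKM at low density and 12.1 and 8.68 FPKM at high density. Its call was lost without low-density replicate 1 (adjusted p = 0.0599), although the log2 fold change was -2.53 there against -2.49 with all libraries. ACTC1, the cardiac actin gene, had 32.1 and 33.3 FPKM at low density and 10.8 and 8.998 FPKM at high density. MYL7, a myosin light chain, fell by 2.84 on a mean of 50 counts per library. The list summed to 8171 and 8034 FPKM at low density and 6526 and 5937 FPKM at high density.

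SRF binds a sequence of 10 bases known as the CArG box. RefSeq promoter windows (GRCh38.p14, 250 bases before to 50 after the start site, the first window listed for each gene) were matched for 12927 of the 17672 tested genes, and a CArG box on either strand stood in 1.08% of them, in 2.12% of those of lower genes and in 1.34% of those of higher genes. In the list of actin, myosin and SRF-type genes 10 of 41 windows held one. SRF-type genes were put in this list by choice, so this share is not a finding about its members. Of these 10 genes 5 were lower, against 13 of all 41. Of the 140 windows with a box among all tested genes, 18 were of higher genes and 15 of lower genes. The 120 bases before the start site are shown for 2 lower members of that list and for EGR1, the higher immediate-early gene, to set the same motif beside opposite changes. Capitals mark the CArG box and each sequence reads 5′ to 3′ towards the start site.
MYL7, chr7:44141333-44141452, minus strand: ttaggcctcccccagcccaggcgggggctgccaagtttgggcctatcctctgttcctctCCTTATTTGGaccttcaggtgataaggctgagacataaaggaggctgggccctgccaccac
ACTC1, chr15:34795550-34795669, minus strand: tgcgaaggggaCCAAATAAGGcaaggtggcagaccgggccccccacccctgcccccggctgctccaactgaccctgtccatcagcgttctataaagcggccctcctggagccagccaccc
EGR1, chr5:138465359-138465478, plus strand: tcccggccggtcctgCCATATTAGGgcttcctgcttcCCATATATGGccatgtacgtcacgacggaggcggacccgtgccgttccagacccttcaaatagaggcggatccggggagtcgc
The box began 61 bases before the start site in MYL7 and 109 bases before it in ACTC1, and EGR1 held 2 boxes, at 105 and 83 bases. MYL7 and ACTC1 were among the lower genes and EGR1 among the higher ones. The TEAD motif CATTCC on either strand was in 10.7% of all windows, 13.7% of lower and 10.6% of higher ones. The AP-1 motif TGANTCA on either strand was in 4.57% of all windows, 9.92% of lower and 4.77% of higher ones. These shares are a description, and binding at these windows was not measured.

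**Figure D3:**
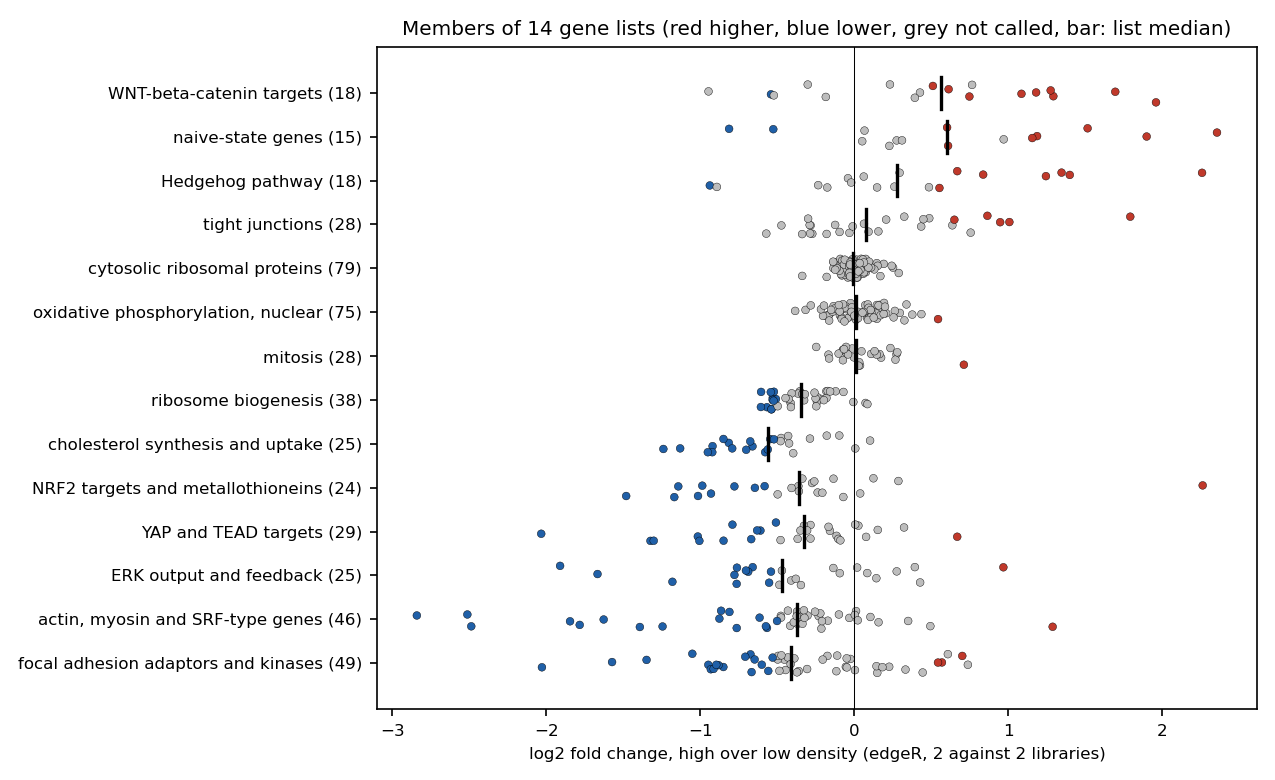
Each point is the log2 fold change, high over low density, of 1 tested member of the list named on the left (number of tested members in brackets), in red where called higher, blue where called lower and grey where not called, and the black bar is the list median. Ribosomal proteins, oxidative phosphorylation and mitosis lay close to 0, while the median of cholesterol synthesis was -0.56 and that of WNT-beta-catenin targets 0.56.

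Genes of focal adhesions, the plaques that tie integrins to actin, were also more often lower than higher. Of 49 adaptors and kinases 17 were lower and 3 higher, with a median of -0.41, and the higher count was 1 without low-density replicate 2. FLNC, a filamin that cross-links actin, had 14.3 and 14.7 FPKM at low density and 4.004 and 3.38 FPKM at high density and fell by 2.03 (SE 0.07, adjusted p = 5.23e-13). The scaffold NEDD9 and the adaptor LIMS2 fell by 1.57 and 1.35, and PDLIM1, with 96.8 and 97.2 FPKM at low density and 143 and 151 FPKM at high density, rose by 0.54. Of the integrins 3 of 19 were lower and 2 higher, and the lower count was 5 without high-density replicate 2. ITGB5, a subunit of the vitronectin receptor, had 60.3 and 61.4 FPKM at low density and 26.05 and 23.8 FPKM at high density, whereas the laminin-binding subunit ITGA6 had 35.2 and 34.1 FPKM at low density and 53.01 and 54.3 FPKM at high density. In caveolae, the small pits of the membrane that flatten under tension, CAV1 and CAV2 were the 2 lower genes of 11 (the lower count was 4 without high-density replicate 1), with 9.92 and 9.83 FPKM at low density and 1.72 and 1.17 FPKM at high density for CAV1 and a fall of 1.75 on the log2 scale for CAV2.

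Annexins and S100 proteins, which bind calcium and membranes, were lower in 5 of 16 cases and higher in 0. ANXA1 had 10.3 and 10.2 FPKM at low density and 1.05 and 0.4603 FPKM at high density. ANXA3 had 26.1 and 26.97 FPKM at low density and 7.33 and 7.42 FPKM at high density. ANXA2 and S100A10, the subunits of 1 complex, fell side by side, with log2 fold changes of -1.35 (SE 0.06) and -1.06 (SE 0.07). Keratins and other intermediate filaments were lower in 7 of 17 cases and higher in 0, with a median of -0.40. Vimentin (VIM), the filament of mesenchymal and spreading cells, had 81.2 and 90.6 FPKM at low density and 43.5 and 41.4 FPKM at high density. The nuclear lamin LMNA fell by 0.79, synemin (SYNM) by 1.23 and KRT18 by 0.67.

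Genes of the extracellular matrix were called in both directions. Of 40 collagens 9 were higher and 7 lower. COL6A1, a chain of the beaded-filament collagen VI, had 29.03 and 28.2 FPKM at low density and 69.3 and 66.8 FPKM at high density and rose by 1.19 on the log2 scale (SE 0.06, adjusted p = 1.77e-12). COL12A1, a fibril-associated collagen, had 1.63 and 1.66 FPKM at low density and 0.481 and 0.337 FPKM at high density. COL5A2 and COL11A1 fell by 1.33 and 0.87 and COL9A1 rose by 0.84. In the laminin list 4 of 21 were higher and 4 lower, and the higher count was 1 without low-density replicate 2 and 2 without high-density replicate 2. Osteopontin (SPP1) had 40.97 and 42.6 FPKM at low density and 11.5 and 9.498 FPKM at high density. EFEMP1 and EFEMP2, proteins of elastic fibres, and thrombospondin 4 (THBS4) rose by 0.71, 0.82 and 0.74, and in all 5 of 39 matrix glycoproteins were higher and 9 lower.

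Proteoglycans and the enzymes that shape them were higher in 6 of 26 cases and lower in 7. SULF1, which trims sulphate from heparan sulphate, had 1.32 and 1.26 FPKM at low density and 3.37 and 4.35 FPKM at high density. GPC2 rose by 0.70 and GPC6 fell by 0.71, syndecan 2 (SDC2) fell by 0.81, and CD44 and the hyaluronan synthase HAS2 fell by 0.85 and 0.91. Matrix proteases and their inhibitors were lower in 16 of 51 cases and higher in 7, and the higher count was 4 without high-density replicate 2. The metalloproteases ADAMTS1 and ADAM19 fell by 1.65 and 1.26, and MMP11 rose by 1.22, with 2.12 and 1.64 FPKM at low density and 4.22 and 4.89 FPKM at high density.

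Cell contacts were called in both directions. Among tight junction genes 5 of 28 were higher and 0 lower, and the lower count was 2 without high-density replicate 2. TJP3 (ZO-3), a junctional scaffold, had 2.51 and 2.77 FPKM at low density and 9.27 and 9.82 FPKM at high density and CLDN3 had 3.06 and 3.88 FPKM at low density and 7.13 and 7.45 FPKM at high density. The junctional proteins MAGI2 and JAM2 rose by 0.87 and 0.95. The summed level of the list was slightly lower at high density (645 and 616 FPKM against 658 and 653 FPKM). Of 25 classical cadherins, catenins and nectins 3 were higher and 4 lower (the higher count was 1 without low-density replicate 2), and CTNNA2, a neural alpha-catenin, rose by 0.67. In desmosomes and gap junctions 4 of 21 were lower and 2 higher (the higher count was 1 without low-density replicate 1 or low-density replicate 2 and 0 without high-density replicate 2), with falls of 0.72 in the connexin GJC1 and 0.63 in PKP2. Clustered protocadherins, near-identical genes whose reads may be split between copies, were higher in 9 of 52 cases and lower in 0. A mean of at least 1 FPKM was reached by 18 of the 52. In a fit of log2(FPKM + 1), limited to genes with a mean of at least 0.5 FPKM, the higher count of clustered protocadherins was 0. For them the higher count was 3 without low-density replicate 1 and 5 without high-density replicate 2 and the lower count was 2 without low-density replicate 2, high-density replicate 1 or high-density replicate 2. Polarity genes were higher in 5 of 35 cases and lower in 1 (the lower count was 2 without high-density replicate 1), the higher ones among them CRB2 (0.99), PRICKLE3 (0.86) and CELSR2 (0.57).

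**Figure D4:**
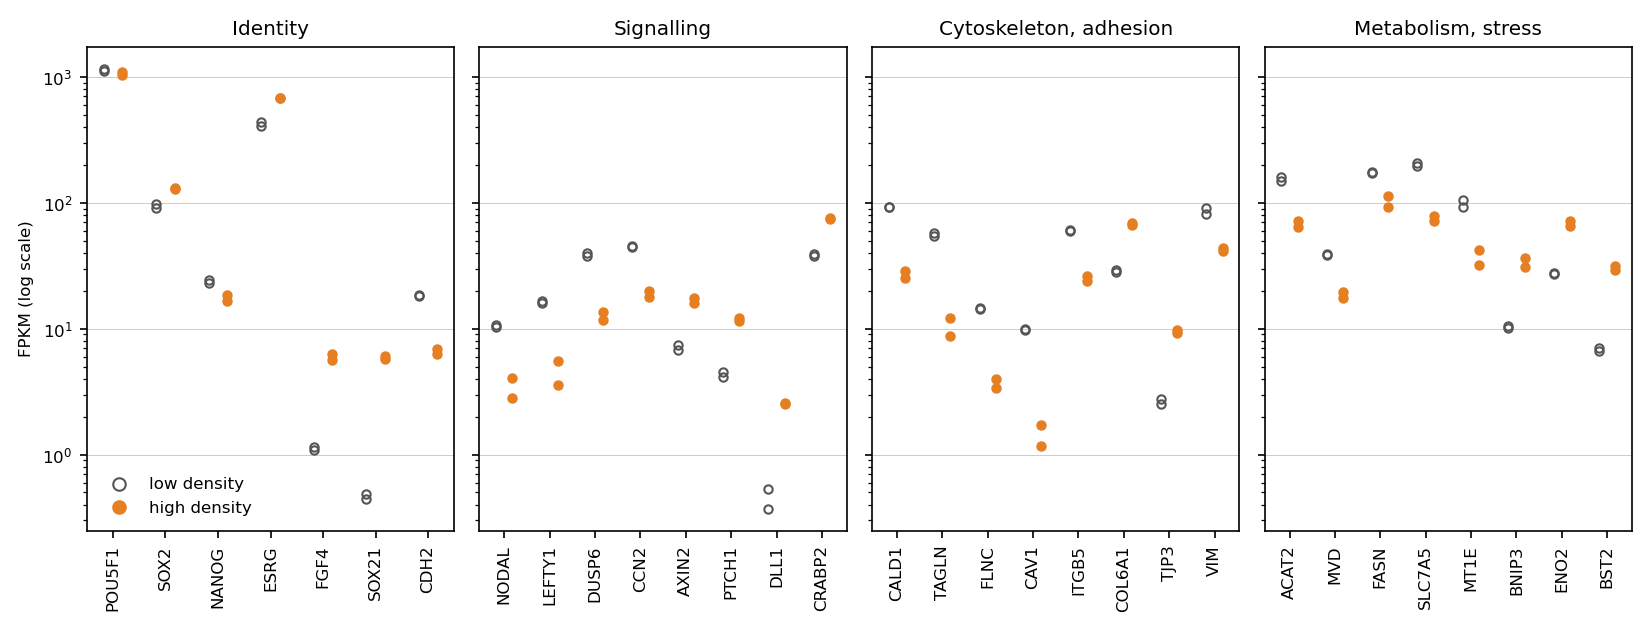
FPKM (log scale) of 31 named genes in each library, open grey circles for the 2 low-density libraries and filled orange circles for the 2 high-density libraries. POU5F1 stayed between 1045 and 1158 FPKM, while CALD1, DUSP6 and SLC7A5 fell and AXIN2, PTCH1 and BST2 rose with no overlap between the densities.

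Cholesterol synthesis had the largest share of lower genes of all lists with at least 10 tested members, 15 of 25, with 0 higher and a median of -0.56. These enzymes are switched on together by SREBP factors when cell sterols run low. ACAT2, the thiolase that makes acetoacetyl-CoA, had 160 and 149.9 FPKM at low density and 71.6 and 64.8 FPKM at high density and fell by 1.24 (SE 0.06, adjusted p = 8.04e-12), and its span overlaps that of TCP1 on the genome. MVD, which makes isopentenyl diphosphate, had 39.4 and 38.9 FPKM at low density and 19.8 and 17.4 FPKM at high density. CYP51A1, the lanosterol demethylase, fell by 0.92. In 23 of 25 members the log2 fold change was below 0, and the list summed to 1601 and 1529 FPKM at low density and 1054 and 942 FPKM at high density. Leaving out 1 library at a time gave 11 to 18 lower members.

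Fatty acid synthesis and desaturation had 6 of 20 genes lower and 1 higher, with a median of -0.38, and the higher count was 0 without low-density replicate 1, low-density replicate 2 or high-density replicate 1. The desaturase FADS2 had 214 and 210.5 FPKM at low density and 131 and 112 FPKM at high density, fatty acid synthase (FASN) had 172 and 177 FPKM at low density and 114 and 91.99 FPKM at high density and the stearoyl-CoA desaturase SCD had 423 and 406 FPKM at low density and 301 and 269 FPKM at high density. All 3 are also SREBP targets and were lower in both high-density libraries than in either low-density library, by log2 fold changes of -0.86, -0.82 and -0.59.

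Few nuclear genes of oxidative phosphorylation were called, and glycolysis genes were called at close to the shares of all tested genes. Of 75 nuclear genes of oxidative phosphorylation 1 was higher and 0 lower (median 0.013), and the higher one, ATP5PD, was under the size threshold without low-density replicate 2 (0.48) or high-density replicate 2 (0.48). The 13 mitochondrial transcripts all had a log2 fold change above 0, with a median of 0.19, and 0 were called. Of 23 glycolysis genes 2 were higher (8.7%, against 10.7% of all tested genes) and 1 lower (4.35%, against 5.47%). ENO2, an enolase, had 27.3 and 27.7 FPKM at low density and 65.7 and 71.2 FPKM at high density, the lactate exporter SLC16A3 had 1.02 and 1.42 FPKM at low density and 3.73 and 4.36 FPKM at high density, and the glucose transporter SLC2A1 had 96.4 and 98.6 FPKM at low density and 68.4 and 64.5 FPKM at high density. Hypoxia-induced genes were higher in 7 of 30 cases and lower in 2, which were SLC2A1 and ADM. The summed FPKM of the hypoxia list overlapped between the densities (735 and 731 at low density, 734 and 746 at high density). The mitophagy receptors BNIP3 and BNIP3L rose by 1.66 and 0.92, with 10.1 and 10.5 FPKM at low density and 30.8 and 36.7 FPKM at high density for BNIP3, DDIT4 (an inhibitor of mTORC1) rose by 1.55, and ADM (adrenomedullin), another hypoxia-induced gene, fell by 1.29.

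Amino acid supply and stress genes gave mixed counts. SLC7A5 and SLC3A2 form the main transporter of large neutral amino acids. SLC7A5 had 197 and 206 FPKM at low density and 78.1 and 71.9 FPKM at high density and SLC3A2 had 164 and 167 FPKM at low density and 93.1 and 97.5 FPKM at high density. Both genes fell, by 1.48 (SE 0.05) and 0.85 (SE 0.05). They belong to the ATF4 targets, the genes of the integrated stress response, of which 4 of 33 were lower and 4 higher, and the higher count was 2 without high-density replicate 2. DDIT3 (CHOP) rose by 0.88, and ATF5 fell by 0.92. ER chaperones were lower in 2 of 21 cases (the lower count was 6 without high-density replicate 1 and 1 without high-density replicate 2), among them HSPA5 (BiP) with a fall of 0.61, and 18 of 21 had a log2 fold change below 0. Among 18 heat-shock chaperones the lower count was 2 without low-density replicate 2 or high-density replicate 1 and 0 without high-density replicate 2. With all libraries 1 was higher, HSPB1 at 0.59, and 1 was lower, HSPA8 at -0.55, which was under the size threshold without high-density replicate 2 (-0.45).

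NRF2 targets and metallothioneins, the genes of oxidant and metal defence, were lower in 9 of 24 cases and higher in 1, with a median of -0.36. MT1E had 92.4 and 106 FPKM at low density and 32.2 and 42.1 FPKM at high density, and its reads may be shared with other MT1 copies. NQO1, a quinone reductase, had 44.7 and 45.5 FPKM at low density and 22.02 and 19.7 FPKM at high density. Heme oxygenase 1 (HMOX1) had 33.4 and 36.1 FPKM at low density and 18.8 and 16.98 FPKM at high density. NQO1 and HMOX1 fell by 1.17 (SE 0.06) and 1.01 (SE 0.07). p53 targets were lower in 7 of 27 cases and higher in 0, and the higher count was 1 without low-density replicate 2 and 2 without high-density replicate 1. The kinases PLK2 and PLK3 fell by 1.77 and 0.77, the death receptor TNFRSF10A by 1.13 and GADD45A by 0.78. CDKN1A (p21), the CDK inhibitor that p53 induces, had 10.7 and 10.4 FPKM at low density and 5.51 and 7.7002 FPKM at high density. The summed level of the p53 list overlapped between the densities (454 and 464 FPKM against 443 and 481 FPKM).

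Lysosome and autophagy genes were higher in 5 of 37 cases and lower in 1, and the lower count was 2 without high-density replicate 2. The acid glucosidase GAA had 3.43 and 3.47 FPKM at low density and 7.95 and 8.38 FPKM at high density and the protease cathepsin B (CTSB) had 5.86 and 6.39 FPKM at low density and 11.04 and 11.7 FPKM at high density. NPC1, which exports cholesterol from lysosomes, was the lower member, at -0.63. Cell death genes were higher in 5 of 28 cases and lower in 1, and the lower count was 2 without low-density replicate 1 and 3 without high-density replicate 1. The BH3-only proteins BMF, BCL2L11 (BIM) and PMAIP1 (NOXA) rose by 0.93, 0.83 and 0.58, whereas BID fell by 0.64.

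Of the mitosis genes 3.57% were called higher, and of the DNA replication genes 8.57% were called lower. The shares of all tested genes were 10.7% higher and 5.47% lower. Among 28 mitosis genes 1 was higher and 0 lower, and it was BUB1, a kinase of the spindle checkpoint, with 39.5 and 39.1 FPKM at low density and 68.2 and 65.7 FPKM at high density. In DNA replication 3 of 35 were lower and 0 higher (the lower count was 1 without high-density replicate 2), and 27 of 35 had a log2 fold change below 0. Among cyclins, CDK inhibitors and MYC genes 4 of 23 were higher and 2 lower, and the lower count was 1 without low-density replicate 2 and 4 without high-density replicate 1. The CDK inhibitors CDKN1B (p27) and CDKN1C (p57) rose, with 8.04 and 8.04 FPKM at low density and 13.9 and 13.999 FPKM at high density and 2.04 and 2.56 FPKM at low density and 5.52 and 5.11 FPKM at high density, which is the opposite direction to CDKN1A. CDK6 rose by 0.57 and MYC fell by 0.54. Replication-dependent histones, whose mRNA mostly lacks a poly-A tail, were lower in 6 of 26 cases and higher in 0, and the lower count was 3 without low-density replicate 1 or low-density replicate 2.

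Ribosome biogenesis factors build ribosomes in the nucleolus and are not part of them. Of 38 biogenesis factors 11 were lower and 0 higher, 36 had a log2 fold change below 0 and the median was -0.35. PES1 and NOP16, nucleolar factors of the large subunit, fell by 0.61 and 0.60. The called count rested on high-density replicate 2, as it was 2 without that library and 15 without high-density replicate 1. Of 79 cytosolic ribosomal proteins 0 were called, 37 were above 0 and 42 below, and the median was -0.0084 (-0.018 to 0.01 when 1 library was left out). The most abundant of them, RPS2, had 1867 and 1888 FPKM at low density and 1971 and 1909 FPKM at high density.

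Of 27 interferon-stimulated genes 6 were higher and 2 lower, with a median of 0.25, and the higher count was 2 without low-density replicate 1. BST2 (tetherin), a membrane protein that retains viruses, had 6.68 and 7.01 FPKM at low density and 29.5 and 31.7 FPKM at high density and rose 4.29-fold (adjusted p = 3.60e-13). IFITM1, an abundant membrane protein of hESCs, had 203 and 201 FPKM at low density and 337 and 374 FPKM at high density. USP18, an inhibitor of interferon signalling, fell by 1.01. Antigen presentation genes were higher in 4 of 26 cases and lower in 0, among them B2M, the light chain of MHC class I, with 17.8 and 17.9 FPKM at low density and 30.03 and 33.7 FPKM at high density. Of 24 chemokines, cytokines and NF-kappaB targets 6 were higher and 2 lower, and the lower count was 4 without high-density replicate 2. NFKB2 and ICAM1 rose by 1.02 and 0.99 and the chemokine CXCL12 by 0.62, and CXCL14 fell by 1.51.

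Among Polycomb and Trithorax genes 5.88% were higher and 2.94% lower, against 10.7% and 5.47% of all tested genes. The shares of all tested genes are not matched to the level of the Polycomb and Trithorax genes. Of 34 such genes 2 were higher and 1 lower (the higher count was 4 without high-density replicate 1 and the lower count was 2 without high-density replicate 1), with AEBP2, a subunit of PRC2, at 0.62 and PCGF5, a subunit of PRC1, at -0.70. Of 12 DNA methylation and demethylation genes 2 were higher and 2 lower, and the lower count was 1 without low-density replicate 1, low-density replicate 2 or high-density replicate 2. GADD45G, a stress-induced gene, rose by 1.80 and the cytidine deaminase APOBEC3B by 0.69, while GADD45A and GADD45B fell by 0.78 and 0.51. The call of GADD45B was lost without low-density replicate 1 (adjusted p = 0.0558), low-density replicate 2 (adjusted p = 0.0992) or high-density replicate 2 (-0.49 on the log2 scale). DNMT3B, the de novo methyltransferase of hESCs, had 827 and 778 FPKM at low density and 834 and 744 FPKM at high density and was not called (log2 fold change -0.08, adjusted p = 0.254). Of 29 imprinted genes 5 were higher and 2 lower, and besides CDKN1C the transporter SLC22A18, in the same imprinted region, rose by 1.41, while PEG10 fell by 0.69. In the primary cilium list 6 of 52 genes were higher and 2 lower (the lower count was 1 without low-density replicate 2 or high-density replicate 2), with rises in the kinesin KIF17 (0.93), the transport protein IFT140 (0.73) and the ciliary regulator RFX2 (0.69).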

How the data were processed

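The authors made poly-A libraries of H9 hESC RNA with a stranded kit. Per the labels, the processing used Trimmomatic, HISAT2 2.1.0, StringTie 2.1.3b and the build GRCh37. The authors deposited unnormalized read counts per gene, and FPKM values normalized for transcript length and mapped reads. Whether counting used strand is not given in the sources used here, so counts of overlapping genes and near-identical copies are uncertain. Each gene in the deposited table has at least 1 read in every library. The authors' fold changes and p-values, and 8 further columns of per-sample values (TPM and normalized values), were not used.

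Groups were taken from the labels. Counts were tested with edgeR 4.0.16 in R 4.3.3 (filterByExpr, TMM, robust quasi-likelihood fit), 2 libraries against 2, without a replicate block, with Benjamini-Hochberg adjustment over 17672 genes. The biological coefficient of variation was 6.83%. A gene was called at an adjusted p under 0.05 with a log2 fold change above 0.5 in size. Standard errors (SE) are of the log2 fold change. On simulated counts with 200 genes changed, 91.5% were called and 3.68% of calls were false. Each of the 200 was changed 2-fold and drawn from genes above a minimum level, and all others were left unchanged. Of the genes called in the data, 800 higher and 335 lower ones were over 2-fold. The simulation cannot give the rates for smaller changes or for genes of lower level.

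The comparison and the 68 gene lists were chosen with earlier results of these data known. Lists held 2125 symbols, of which 1827 were tested. They are described by counts and medians, with no test of a list. Named genes are the 15 largest rises and falls (called, mean FPKM of at least 1, no overlap), up to 4 called members per direction of each list by the same conditions, cell type markers, the most abundant member of a list with none named, and 2 leading genes of extreme symbol families. Some genes selected in this way are not reported here. Gene positions were read from the GENCODE annotation on GRCh37, which matched 18238 symbols, and promoter windows from RefSeq on GRCh38.p14.

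Alternatives were DESeq2 1.42.0 (size factors, and the Wald test), no filter or at least 10 counts in every library, a replicate block, limma 3.58.1 on log2(FPKM + 0.5) with pseudocounts of 0.1 and 1 and with all genes, an absolute log2 fold change over 1, and each library left out. The depth was 50359703 to 62410168 counts per library. For genes with many reads, precision was limited by the spread between libraries more than by counting error. For genes with few reads, counting error weighed more.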

Additional observations from a re-analysis of the deposited data

How the results depend on the processing

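With all 4 libraries and the settings above, 1884 genes were higher and 967 lower, 2851 in all. DESeq2's size factors gave 1882 higher and 970 lower, the DESeq2 Wald test 1524 and 842, no filter 1853 and 947, and at least 10 counts in every library 1793 and 905. An absolute log2 fold change over 1 left 800 higher and 335 lower, 1135 in all. limma on log2(FPKM + 0.5) gave 1181 higher and 536 lower, 1717 in all, with a pseudocount of 0.1 1454 higher and 627 lower, with a pseudocount of 1 839 higher, 417 lower and 1256 in all, and with all genes 1284 higher and 555 lower, 1839 in all. Fold changes on the log2(FPKM + pseudocount) scale understate those of low genes. Leaving out 1 library gave 1531 to 2209 higher, 854 to 1199 lower and 2407 to 3408 in all, the most without high-density replicate 1. Higher genes made up 63.4% to 70.5% of calls in each of these settings. The replicate numbers were not taken as pairs, since the deviations of libraries with the same number correlated at -0.041, and a fit with the replicate block called 1893 higher and 981 lower, 2874 in all. Of 288 named genes that were called, 206 stayed past the thresholds in every setting that tested them, with the limit on size of 0.5, and 0 changed direction in any. Most losses were in the limma fits, up to 59 with a pseudocount of 1, and 15 to 32 were lost when 1 library was left out. Depth limits what can be said of genes at trace levels, and genes with no reads in a library are not in the table.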

Other observations

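By class of gene, lncRNAs were called higher more than lower: 14.8% of 1313 tested lncRNAs were higher and 3.81% lower, with a median log2 fold change of 0.20. Protein-coding genes were higher in 10.9% and lower in 5.80% of 14738 cases. Genes of the class pseudogene were higher in 2.20% and lower in 3.82% of 863 cases. lncRNAs are mostly genes of low level, and the share called higher was largest at 0.1 to 1 FPKM. Whether the class differs at equal level was not tested.

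Across chromosomes the median log2 fold change lay between -0.021 (chromosome 21) and 0.084 (chromosome 19). On chromosome 19, 16.5% of 1224 tested genes were higher and 2.78% lower, and on chromosome 18, 9.92% of 242 were higher and 10.3% lower.

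Among 126 families of genes that share the stem of their symbol, with at least 15 tested members each, the largest shares of higher members were in the FGF genes and the unconventional and other myosins (MYO), with 6 of 20 each. The FGF genes, a stem without the receptors, also had 3 of 20 lower and a median of -0.23. The MYO genes had 0 lower and a median of 0.27. Among members with a mean of at least 1 FPKM, the MYO rises were led by MYO15B, with 0.542 and 0.461 FPKM at low density and 2.27 and 2.35 FPKM at high density, and MYO3A at 0.67 on the log2 scale. The KLF factors had 4 of 15 higher, led by KLF15, with 1.94 and 2.46 FPKM at low density and 6.21 and 6.64 FPKM at high density. The golgins (GOLGA) had 9 of 31 higher, but many are near-identical copies whose reads may be split. The largest share of lower members was in the TNF receptor superfamily (TNFRSF), with 5 of 15, led by TNFRSF10A and TNFRSF10D at -1.13 and -1.01. Septins (SEPTIN, counted with their pseudogenes) had 7 of 26 lower.

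A few genes with large fold changes had replicates that disagreed and were not called. BLOC1S5-TXNDC5, a readthrough of the neighbouring genes BLOC1S5 and TXNDC5, had 7 and 24 counts at low density and 36 and 2192 at high density (log2 fold change 5.94, adjusted p = 0.307). UBE2F-SCLY had 192 and 672 counts at low density and 56 and 3 at high density (log2 fold change -3.92, adjusted p = 0.204). TVP23C-CDRT4 had 81 and 9 counts against 14 and 707 (log2 fold change 2.72, adjusted p = 0.516). All 3 are readthroughs of neighbouring genes, so reads may be split between the readthrough and the single genes. They were named after their values were seen.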
